A study of Mus musculus with 2 samples.

Results

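A set of 9 genes of the complement system, of 32285 genes in the deposited tables, was followed across the cell classes of the mouse cornea and its rim, the limbus, after an alkali burn. They are C1qa, C1qb, C1qc, C1ra, C1s1, C2, C3, C4b and Cfb, chosen by gene symbol as components of the classical and alternative pathways, and all 9 were present in both count matrices. The study prepared 1 single-cell library from wild-type tissue injured with NaOH and 1 from uninjured wild-type control tissue. Both came from dissected anterior segments from which most conjunctiva had been cut away, and cells were freed with liberase and trypsin. The sources used here do not state how long after the burn the tissue was taken, nor the number, age, sex or strain of the mice. The 2 libraries share 15 cell barcodes.

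Complement is a cascade of plasma and tissue proteins that tags targets for uptake, attracts leukocytes through small peptides and can perforate membranes. In the classical pathway the recognition molecule C1q, built from the products of C1qa, C1qb and C1qc, carries the serine proteases C1r and C1s, which cut C4 and C2 to form an enzyme that cleaves C3. Factor B, the product of Cfb, forms the corresponding C3-cleaving enzyme of the alternative pathway. Liver makes most complement of plasma, while tissue macrophages are known as a source of C1q, and fibroblasts and epithelia can make other components locally.

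The injured library gave 8368 analysed cells with a median of 10606 UMIs (unique molecular identifiers, which tag single captured transcripts), against 6743 cells with a median of 10152 UMIs in the uninjured library. Levels are UMIs of a gene per 1000000 UMIs of the cell class (CPM) and are compared for the same gene only. With 1 library per group there is no replicate and no test: intervals are 95% intervals, exact Poisson for levels, conditional binomial for ratios and Clopper-Pearson for shares, and cover counting error only. Classes were named from marker lists and carry the ending -like. Complement genes took no part in forming the clusters. The 8 stromal markers summed to 43863 CPM in injured and 77786 CPM in uninjured stromal-like cells, and the 9 macrophage markers to 14221 CPM in injured and 12930.2 CPM in uninjured macrophage or monocyte-like cells. Krt12, the keratin of corneal epithelium, was among the leading genes of most uninjured epithelial-like clusters. The injured and uninjured libraries held 5793 and 6109 epithelial-like, 803 and 459 stromal-like, 344 and 14 macrophage or monocyte-like, 211 and 44 vascular endothelial-like, 97 and 54 Schwann-like and 87 and 58 mural-like cells. Neutrophil-like cells numbered 1017 in the injured library and 2 in the uninjured library, so their levels are given for the injured library alone.

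The 9 genes lie in 3 groups of neighbours and 1 gene apart in the GRCm38 annotation (GENCODE M21), all protein coding. C1qb (ENSMUSG00000036905, chr4:136880129-136886187), C1qc (ENSMUSG00000036896, chr4:136889804-136893065) and C1qa (ENSMUSG00000036887, chr4:136895917-136898803) follow each other on the minus strand with gaps of 3616 and 2851 bases. C1ra (ENSMUSG00000055172, chr6:124512405-124523443, plus strand) and C1s1 (ENSMUSG00000038521, chr6:124530345-124542359, minus strand) stand 6901 bases apart. C4b (ENSMUSG00000073418, chr17:34728380-34743882), Cfb (ENSMUSG00000090231, chr17:34856374-34862518) and C2 (ENSMUSG00000024371, chr17:34862604-34898265) lie on the minus strand of the major histocompatibility region, Cfb and C2 only 85 bases apart. C3 (ENSMUSG00000024164, chr17:57203970-57228136, minus strand) lies elsewhere on that chromosome.

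RefSeq promoters (GRCm38.p6) were held for 5 of the 9 genes, and 3 of them, which lie outside the GENCODE model of their own gene, are shown as the 250 bases before the start: one of a gene counted mostly in macrophage-like cells (C1qb, chr4:136886201-136886450, minus strand), one of a gene counted mostly in stromal-like cells of both libraries (C1s1, chr6:124542360-124542609, minus strand), and that of C3 (chr17:57228137-57228386, minus strand), the gene with the largest stromal difference. Capitals mark matches to TTGCNNAA, the C/EBP motif, on either strand.
C1qb: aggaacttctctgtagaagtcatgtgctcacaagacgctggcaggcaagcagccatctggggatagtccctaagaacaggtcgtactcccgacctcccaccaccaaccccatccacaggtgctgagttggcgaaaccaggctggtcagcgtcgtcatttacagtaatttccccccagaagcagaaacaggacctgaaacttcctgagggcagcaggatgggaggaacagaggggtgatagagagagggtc
C1s1: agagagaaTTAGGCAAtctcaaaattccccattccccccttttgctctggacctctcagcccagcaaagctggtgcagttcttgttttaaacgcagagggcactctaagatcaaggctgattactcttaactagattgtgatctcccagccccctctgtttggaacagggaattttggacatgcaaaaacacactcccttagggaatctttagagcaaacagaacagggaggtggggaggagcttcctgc
C3: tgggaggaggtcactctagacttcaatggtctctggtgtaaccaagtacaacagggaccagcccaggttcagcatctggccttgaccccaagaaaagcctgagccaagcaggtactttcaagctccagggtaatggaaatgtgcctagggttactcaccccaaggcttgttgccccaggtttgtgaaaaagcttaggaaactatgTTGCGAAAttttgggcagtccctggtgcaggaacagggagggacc
C3 held one C/EBP match, TTGCGAAA, that begins 45 bases before the start, and C1s1 held one, TTAGGCAA on the strand shown, that begins 242 bases before it. The C1qb window held none. Of 27025 promoters of the same length, 9.55% hold this motif. Neither the NF-kappaB motif, nor the interferon-stimulated response element, nor the STAT letters TTCNNNGAA occurred on either strand in any of the 5 promoters, and they occur in 1.17%, 3.04% and 7.18% of all promoters. The PU.1 letters GAGGAAGT, on either strand, occurred in 1 of the 5, that of C1qc, and in 2.44% of all promoters. These matches are letters in a window, and no binding was measured.

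The UMIs of each gene came from few classes. In the injured library macrophage or monocyte-like cells, 4.11% of cells, held 96.5% of C1qa UMIs (95.8 to 97.2), 95.8% of C1qb UMIs and 95.4% of C1qc UMIs; in the uninjured library, where they were 0.208% of cells, they held 90.7% (85.1 to 94.7), 88.8% and 83.7%. Stromal-like cells held 94.2% of C1ra UMIs (93.2 to 95.1) and 90.2% of C1s1 UMIs in the injured library, against 90.2% (87.2 to 92.7) and 91.0% in the uninjured library. The distribution of C3 differed between the libraries. In the injured library 33.2% of its 928 UMIs were in neutrophil-like, 30.9% in epithelial-like and 29.8% in stromal-like cells. These classes were 12.15%, 69.2% and 9.60% of the injured cells. In the uninjured library 98.4% of its 245 UMIs (95.9 to 99.5) were in epithelial-like cells, which were 90.6% of the cells there. For C4b, stromal-like cells held 58.1% of 394 UMIs in the injured library and 10.6% of 47 UMIs in the uninjured library, and Schwann-like cells held 33.2% in the injured and 61.7% in the uninjured library.

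**Figure D1:**
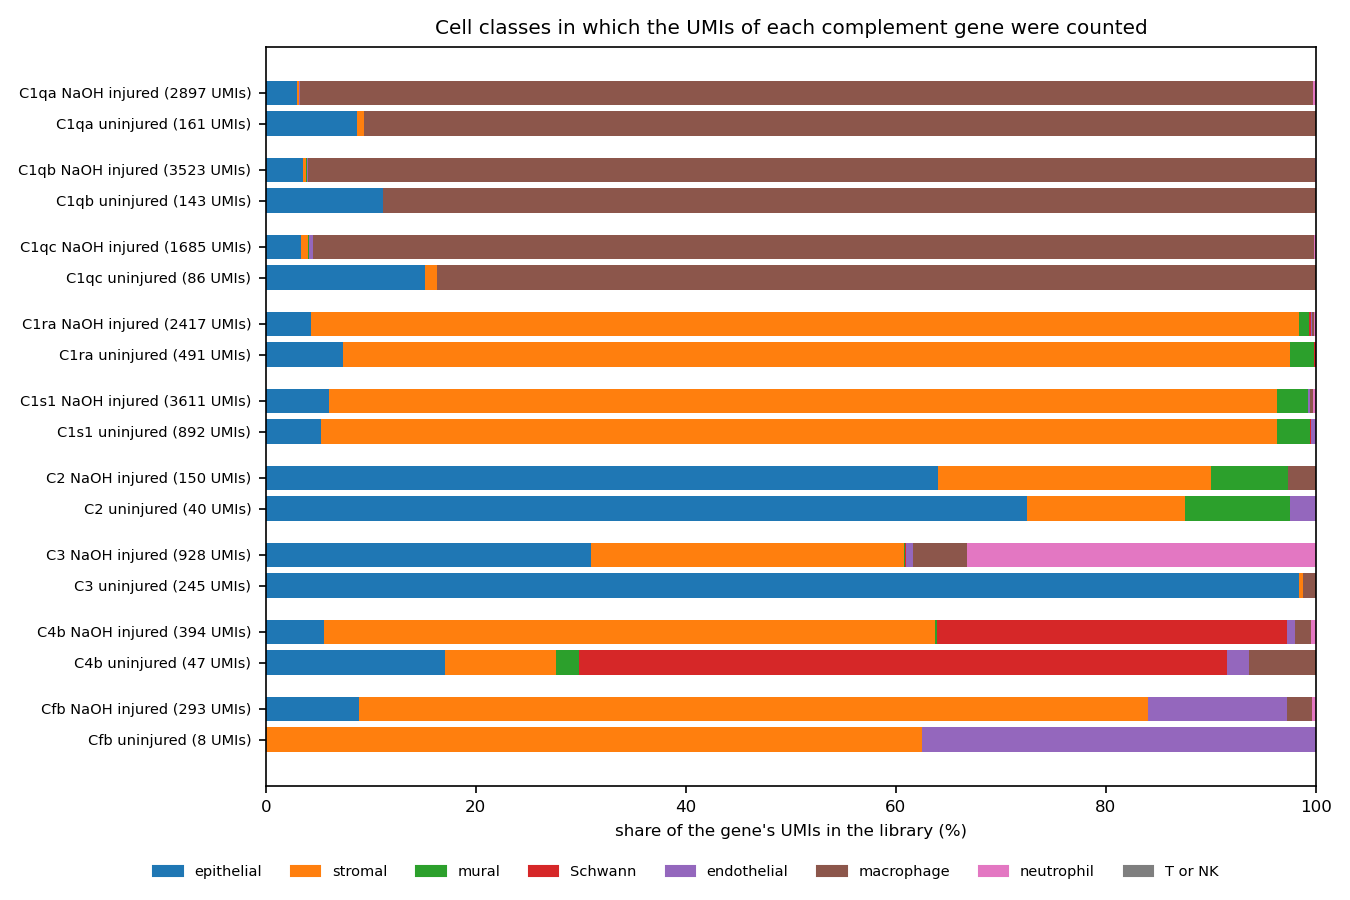
Share of each gene's UMIs, in percent, counted in each cell class, with the injured library above the uninjured library for each gene and the gene's UMIs in brackets. Most C1q chain UMIs lie in macrophage-like cells and most C1ra and C1s1 UMIs in stromal-like cells of both libraries, with 15.1% of the 86 uninjured C1qc UMIs in epithelial-like cells. C3 is shared among neutrophil-like, epithelial-like and stromal-like cells in the injured library. In the uninjured library it is 98.4% epithelial, where epithelial-like cells were 90.6% of all cells.

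The recognition chains C1qa, C1qb and C1qc were abundant in macrophage or monocyte-like cells of both libraries and lower in CPM in the injured ones. C1qa stood at 1465 CPM (1411 to 1520) in 344 injured cells, against 2705 CPM (2284 to 3181) in 14 uninjured cells, 1.85-fold lower (1.55 to 2.18). C1qb stood at 1768 CPM (1709 to 1829) in the injured and 2353 CPM (1961 to 2799) in the uninjured cells, 1.33-fold lower (1.11 to 1.59). C1qc stood at 841.8 CPM (801.1 to 884.0) in the injured and 1334 CPM (1044 to 1680) in the uninjured cells, 1.58-fold lower (1.23 to 2.01). None of the 4 genes measured in this class, that is with at least 20 UMIs over both libraries, was at least 2-fold higher or lower with an interval that excluded 1, the rule by which genes are counted below; over all genes of the class 2.63% were counted higher and 3.33% lower. Their median log2 ratio was -0.77, against -0.29 over the 7294 genes measured. The class also holds dendritic-like cells, 102 of the injured cells and 7 of the 14 uninjured cells, and the uninjured values rest on few cells.

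Within the injured macrophage or monocyte-like class the chains differed by sub-cluster. In 239 cells led by Pf4 and F13a1, C1qa stood at 1713 CPM (1648 to 1781), C1qb at 2053 CPM (1981 to 2127) and C1qc at 1003 CPM (953.1 to 1055). In the 102 dendritic-like cells, led by Cd209a and genes of antigen presentation, they stood at 568.0 CPM (497.4 to 645.8), 741.1 CPM (660.1 to 829.3) and 258.4 CPM (211.6 to 312.5). The 9 macrophage markers summed to 7604 CPM in these dendritic-like cells, with 0 at 0, and to 16056 CPM in the cells led by Pf4. Of the 7 dendritic markers 3 reached 50 CPM in the dendritic-like sub-cluster. At least 1 C1qa UMI was found in 71.5% of the cells led by Pf4 and in 26.5% of the dendritic-like cells. The chains were counted in the same cells: of 199 injured cells of the class with a C1qa UMI, 97.0% also had a C1qb UMI and 94.5% a C1qc UMI, against 62.5% and 57.3% of all 344 cells. All these shares are unthinned. The overlap pools the cells led by Pf4 and the dendritic-like cells, at medians of 5101 and 3706.5 UMIs.

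Outside macrophages the C1q chains were low. In injured epithelial-like cells C1qa stood at 1.05 CPM (0.840 to 1.30), C1qb at 1.55 CPM and C1qc at 0.693 CPM, against 0.189 CPM (0.103 to 0.317), 0.216 CPM and 0.175 CPM in uninjured epithelial-like cells. The injured epithelial values were 0.0718%, 0.0875% and 0.0823% of the macrophage level of the same library. C1qa stood at 0.690 CPM (0.277 to 1.42) in injured stromal-like cells and 0.978 CPM (0.118 to 3.53) in injured endothelial-like cells, intervals that overlap the epithelial one, and at 7.46 CPM (2.998 to 15.4, 7 UMIs) in injured neutrophil-like cells, above it. Of the C1q chain UMIs in injured epithelial-like cells 32.0% were C1qa (26.4 to 37.9), 47.0% C1qb (40.9 to 53.2) and 21.1% C1qc (16.3 to 26.4). In injured macrophage or monocyte-like cells the shares were 35.9% (34.9 to 37.0), 43.4% (42.3 to 44.5) and 20.7% (19.8 to 21.6), within the epithelial intervals. The uninjured macrophage or monocyte-like cells had 42.3% C1qa (37.0 to 47.7), 36.8% C1qb (31.7 to 42.1) and 20.9% C1qc (16.7 to 25.5).

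**Figure D2:**
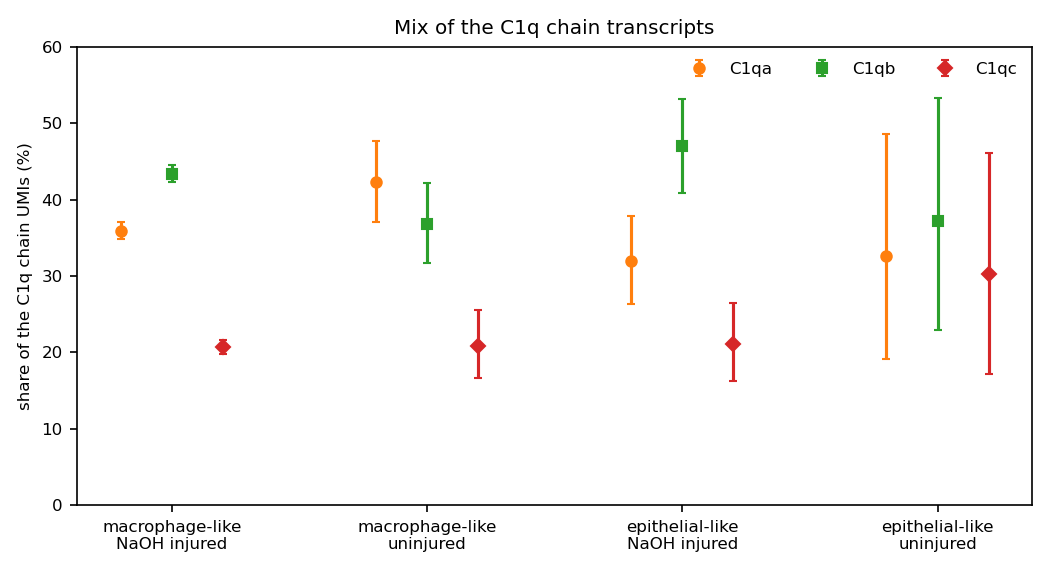
Share of each C1q chain, in percent of all C1q chain UMIs, in macrophage-like and epithelial-like cells of the injured and uninjured libraries; bars are 95% Clopper-Pearson intervals. The injured epithelial-like mix overlaps the injured macrophage-like mix for all 3 chains, with C1qb at 47.0% and 43.4%.

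C1ra and C1s1, the mouse genes of the proteases that C1q carries, were high in stromal-like cells of both libraries, and their stromal levels stood close in the 2 libraries. C1ra stood at 224.2 CPM (215.1 to 233.6) in injured and 171.4 CPM (155.8 to 188.1) in uninjured stromal-like cells, 1.31-fold higher (1.18 to 1.45). C1s1 stood at 321.0 CPM (310.1 to 332.2) in injured and 314.2 CPM (292.9 to 336.5) in uninjured stromal-like cells, a ratio of 1.02 (0.946 to 1.11). Mural-like cells, the pericytes and smooth muscle of vessels, came next in both libraries. There C1s1 stood at 162.9 CPM (133.4 to 197.1) in injured and 222.6 CPM (147.9 to 321.7) in uninjured cells, a ratio of 0.732 (0.479 to 1.15), and C1ra at 35.4 CPM (22.4 to 53.0) in injured and 87.4 CPM (43.6 to 156.5) in uninjured cells, 2.47-fold lower (1.09 to 5.28). Thus 1 of the 2 genes measured in mural-like cells was counted lower and 0 higher, where 8.09% of all genes were counted lower and 8.8% higher; it rests on 23 injured and 11 uninjured UMIs of C1ra, and was no longer counted with no doublets removed (log2 ratio -1.10, against -1.31 as reported) or with cells thinned to 1000 UMIs (-0.29). The mural-like cells were also shallower in the uninjured library, with a median of 6029 UMIs in injured and 2094 UMIs in uninjured cells, and stromal markers summed to 5034 CPM in injured and 1860 CPM in uninjured mural-like cells; the part of either in these values was not tested. In the order of levels the uninjured stromal and mural intervals of C1s1 overlapped, while in the injured library the stromal level was above the mural level for both genes. After these 2 classes, every other class of at least 20 cells was at or below 10.7 CPM of C1ra and C1s1 except uninjured endothelial-like cells, at 23.9 CPM of C1s1 (6.52 to 61.3, 4 UMIs).

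In shares of cells, thinned to 1000 UMIs per cell because injured stromal-like cells were deeper (median 12005 UMIs, against 5715 UMIs in the uninjured ones), C1ra was found in 20.4% of 799 injured cells (17.7 to 23.4) and 17.7% of 451 uninjured cells (14.3 to 21.6). C1s1 was found in 30.2% (27.0 to 33.5) of the injured and 22.4% (18.6 to 26.5) of the uninjured cells. Before thinning C1ra was found in 83.8% of injured and 54.7% of uninjured cells, and C1s1 in 88.7% of injured and 74.9% of uninjured cells. Among thinned epithelial-like cells, at medians of 11662 and 10595 UMIs before thinning, 0.209% of injured and 0.0348% of uninjured cells had a C1s1 UMI.

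C2 and C4b encode the proteins that C1s cuts. C2 was sparse everywhere. Its highest level was in mural-like cells, at 16.9 CPM (8.44 to 30.2, 11 UMIs) in the injured and 31.8 CPM (8.66 to 81.4, 4 UMIs) in the uninjured library, followed in the injured library by stromal-like cells. Stromal-like C2 stood at 3.84 CPM (2.73 to 5.25) in injured and 2.32 CPM (0.852 to 5.05) in uninjured cells, a ratio of 1.66 (0.696 to 4.78) that includes 1. C4b was high in Schwann-like cells, the glia of corneal nerves, at 374.6 CPM (313.2 to 444.5) in injured and 299.9 CPM (200.9 to 430.7) in uninjured cells, a ratio of 1.25 (0.830 to 1.94). The 9 epithelial markers summed to 2748 CPM in injured and 16236 CPM in uninjured Schwann-like cells, 14.2% and 37.9% of their epithelial sums. The part of RNA from other cells in these levels was not tested. A C4b UMI was found in 55.7% of injured and 38.9% of uninjured Schwann-like cells at medians of 2584 and 1203 UMIs, and in 1.15% of injured and 1.72% of uninjured mural-like cells at medians of 6029 and 2094 UMIs. Within the Schwann-like class the cells led by Gfra3 and Cdh19 stood at 441.4 CPM (367.2 to 526.3, 83 cells) in the injured and 423.5 CPM (276.6 to 620.5, 33 cells) in the uninjured library, and 20 uninjured cells led by Ncmap and the myelin gene Mbp stood at 129.8 CPM (26.8 to 379.4, 3 UMIs). That last sub-cluster also held 12 injured cells. C4b was the sole member measured in Schwann-like cells and was counted neither higher nor lower, where 10.3% of all genes were counted higher and 5.58% lower.

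**Figure D3:**
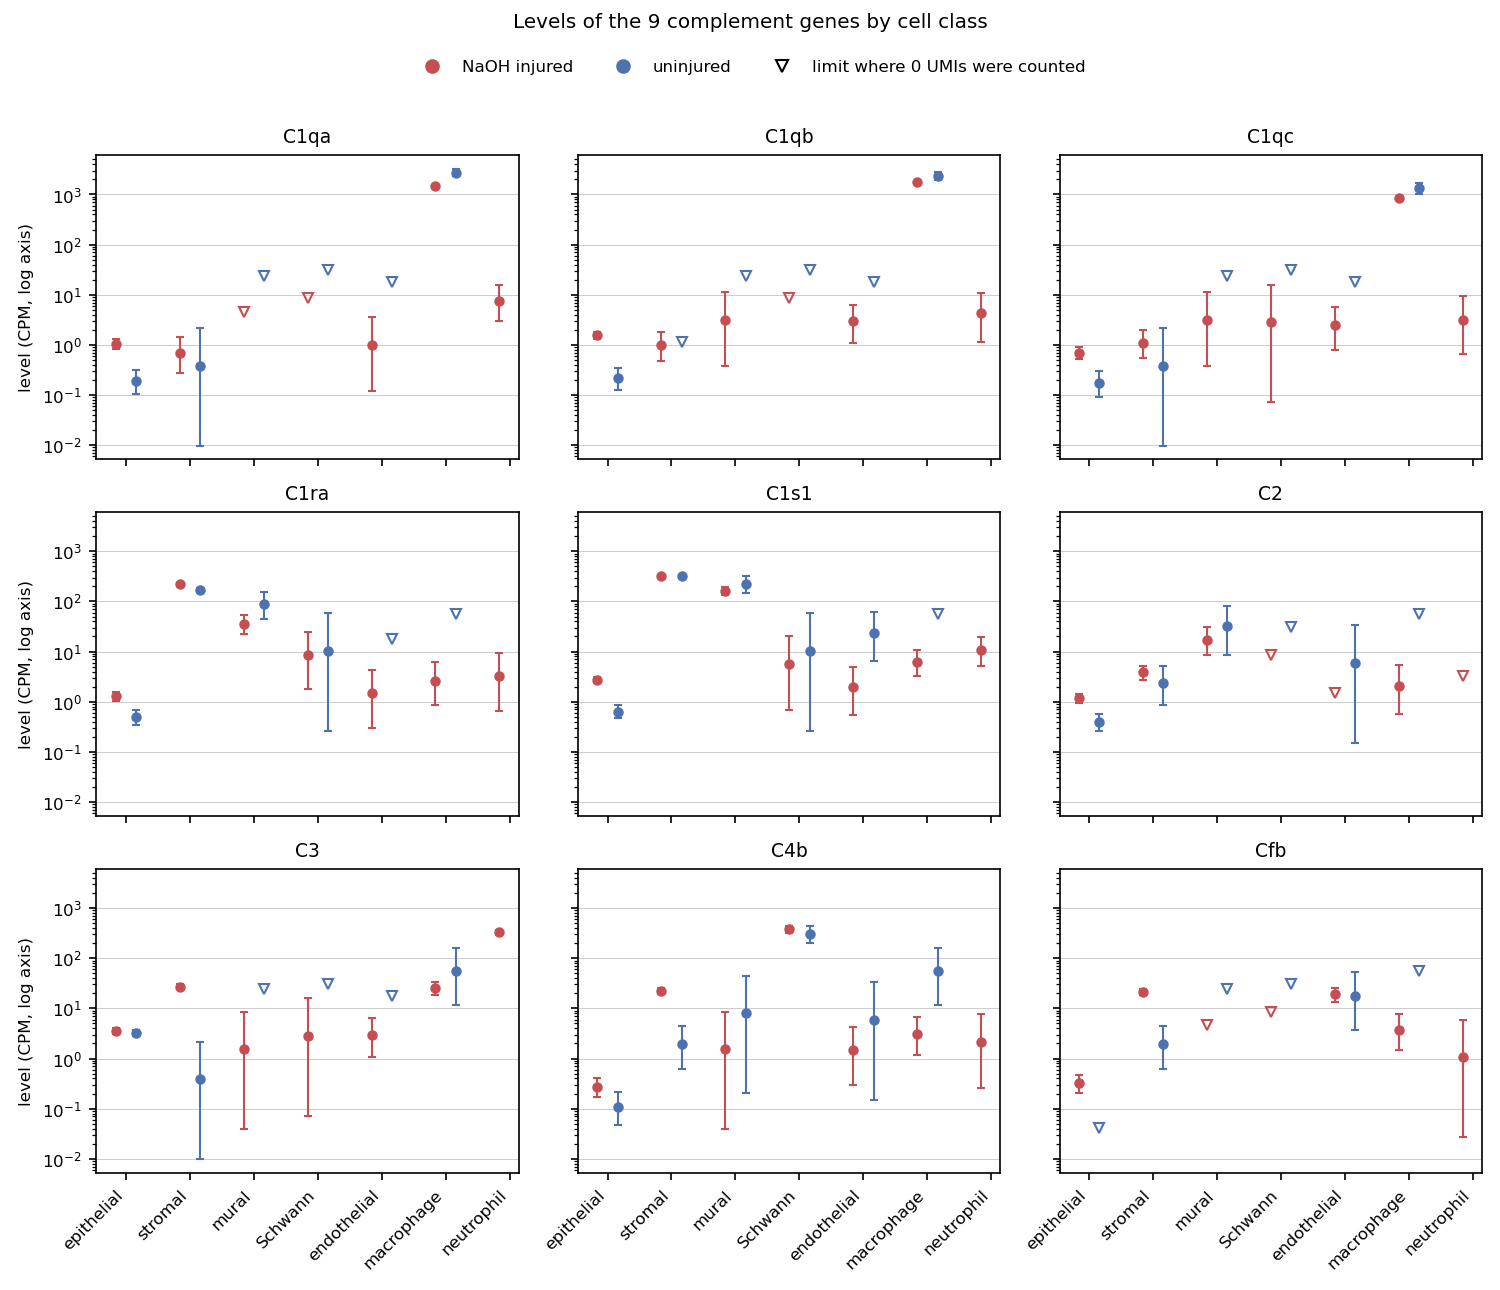
Level of each gene in CPM (log axis) by cell class, injured left of uninjured, with 95% Poisson intervals; open triangles give the level that 3 UMIs would have where 0 were counted, and classes of under 10 cells are left out. Stromal-like cells separate the libraries for C3, C4b and Cfb, at 27.3, 22.6 and 21.7 CPM in the injured and 0.387, 1.94 and 1.94 CPM in the uninjured library, but hardly for C1ra and C1s1.

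In stromal-like cells C4b, C3 and Cfb were many times higher in the injured library. C4b stood at 22.6 CPM (19.7 to 25.7, 229 UMIs) in injured and 1.94 CPM (0.628 to 4.51, 5 UMIs) in uninjured stromal-like cells, 11.7-fold higher (4.92 to 36.3). C3, the protein on which all complement pathways converge, stood at 27.3 CPM (24.2 to 30.7, 277 UMIs) in injured and 0.387 CPM (0.00980 to 2.16, 1 UMI) in uninjured cells, a ratio of 70.5 with an interval of 12.6 to 2795. Cfb stood at 21.7 CPM (18.9 to 24.7, 220 UMIs) in injured and 1.94 CPM (0.628 to 4.51, 5 UMIs) in uninjured cells, 11.2-fold higher (4.73 to 34.8). For each of the 3 genes the interval of the injured level lay above that of the uninjured level. Of the 6 members measured in stromal-like cells 3 were counted higher and 0 lower, where 9.88% of all genes were counted higher and 9.37% lower. The median log2 ratio of the 6 was 2.11, against 0.01 over the 11975 genes measured. C3, C4b and Cfb reached the 20 UMIs needed only through the injured library, and the members were chosen with earlier results of these data known. These counts describe the list and are no test of it.

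The injured stromal-like cells lay mostly in sub-clusters with no or few uninjured cells, so the comparison is between different stromal sub-clusters as well as libraries. With no doublets removed the stromal log2 ratio of C3 was 3.73, against 6.14 as reported. With each cell thinned to 1000 UMIs, C3 was found in 2.38% of 799 injured cells (1.44 to 3.69) and 0 of 451 uninjured cells, which allows a share of up to 0.665% with 3 cells as the limit of a count of 0, and 0.815% by the Clopper-Pearson interval. C4b was found in 2.63% of the injured cells (1.63 to 3.99) and again 0 of 451 uninjured cells, and Cfb in 2.38% of the injured and 0.443% (0.0537 to 1.59) of the uninjured cells. Unthinned, 20.4% of injured and 0.218% of uninjured stromal-like cells had a C3 UMI, against 1.15% of injured and 0 of 58 uninjured mural-like cells at medians of 6029 and 2094 UMIs. The 8 neutrophil markers summed to 160.8 CPM in injured and 43.0 CPM in uninjured stromal-like cells. In the injured library that was 0.254% of their sum in neutrophil-like cells, and stromal C3 stood at 8.32% of the neutrophil level. The part of RNA from other cells in the stromal values was not tested. The 9 macrophage markers summed to 148.1 CPM in injured and 96.7 CPM in uninjured stromal-like cells, with 1 and 4 of the 9 at 0, and the 7 Schwann markers to 8.18 CPM and 11.6 CPM, with 1 and 3 at 0.

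The stromal-like sub-clusters differed in these genes within the injured library. In 207 injured cells led by Clec3b, Penk and Igfbp5, C3 stood at 69.6 CPM (58.1 to 82.8) and Cfb at 56.7 CPM (46.4 to 68.6). In 413 injured cells led by Saa3, Lcn2 and Chil1, C3 stood at 24.3 CPM (20.3 to 28.8) and Cfb at 18.7 CPM (15.2 to 22.8). In 168 injured cells led by Tnfrsf11b, Stmn2 and Inhba, C3 stood at 5.31 CPM (2.97 to 8.76) and Cfb at 4.96 CPM (2.71 to 8.32). These 3 intervals do not overlap for either gene. The cells led by Clec3b had 2.87 times the C3 level (2.23 to 3.69) and 3.03 times the Cfb level (2.28 to 4.02) of those led by Saa3, whereas C4b stood at 29.1 CPM (21.9 to 38.0) in the cells led by Clec3b and 29.8 CPM (25.4 to 34.8) in those led by Saa3, a ratio of 0.977 (0.704 to 1.34). Unthinned, 32 of the 207 cells led by Clec3b (15.5%) and 67 of the 413 led by Saa3 (16.2%) had a Cfb UMI. For C3 the unthinned shares were 31.4% and 21.1%. The cells led by Clec3b were shallower, at a median of 8447 UMIs against 12812 UMIs, and shares at equal depth were not computed by sub-cluster. C4b in the cells led by Tnfrsf11b stood at 4.96 CPM (2.71 to 8.32).

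C1ra and C1s1 followed a similar order with smaller steps. C1ra stood at 306.1 CPM (281.4 to 332.4) in the cells led by Clec3b, 257.8 CPM (244.5 to 271.7) in those led by Saa3 and 108.3 CPM (96.5 to 121.2) in those led by Tnfrsf11b. C1s1 stood at 380.6 CPM in the cells led by Clec3b and 388.5 CPM in those led by Saa3, with overlapping intervals, and at 155.4 CPM in those led by Tnfrsf11b. C2 stood at 13.5 CPM (8.73 to 19.9) in the cells led by Clec3b and at 2.22 CPM (1.15 to 3.88) in those led by Saa3, a ratio of 6.07 (2.94 to 13.3).

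Uninjured stromal-like cells also fell into parts with different levels. In 350 uninjured cells led by Angptl7 and Kera, which encodes keratocan, a proteoglycan of keratocytes, neither C3 nor C4b was counted in 2169245 UMIs, which allows up to 1.38 CPM, and Cfb was counted once. In 87 uninjured cells led by Coch and Tnn, C4b stood at 14.0 CPM (4.53 to 32.6), Cfb at 11.2 CPM (3.04 to 28.6), C2 at 11.2 CPM (3.04 to 28.6) and C3 at 2.79 CPM (0.0707 to 15.6), from 5, 4, 4 and 1 UMIs. C1ra stood at 287.6 CPM (234.8 to 348.9) in the cells led by Coch and 153.0 CPM (137.0 to 170.4) in those led by Kera, a ratio of 1.88 (1.49 to 2.35). Set against the uninjured cells led by Kera, the injured cells led by Saa3 had at least 17.6-fold higher C3 and at least 21.6-fold higher C4b, with the count of 0 set to 3 over the sub-cluster. With the count left at 0, the lower 95% limits of the ratio were 14.1 for C3 and 17.4 for C4b. Set against the uninjured cells led by Coch, the injured cells led by Clec3b had a C3 ratio of 24.9 (4.40 to 992.5) and a Cfb ratio of 5.07 (1.92 to 19.0), while the C4b ratio was 2.09 (0.842 to 6.69), the C1ra ratio 1.06 (0.861 to 1.33) and the C2 ratio 1.21 (0.417 to 4.78), all 3 with intervals that include 1. These pairs of sub-clusters were chosen after their values were seen. The one stromal-like sub-cluster with at least 20 cells of each library, led by Chad and Myoc, held 22 injured and 24 uninjured cells. They had 3 and 0 C3 UMIs, 0 and 0 C4b UMIs, 0 and 0 Cfb UMIs, and 9 and 8 C1ra UMIs.

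**Figure D4:**
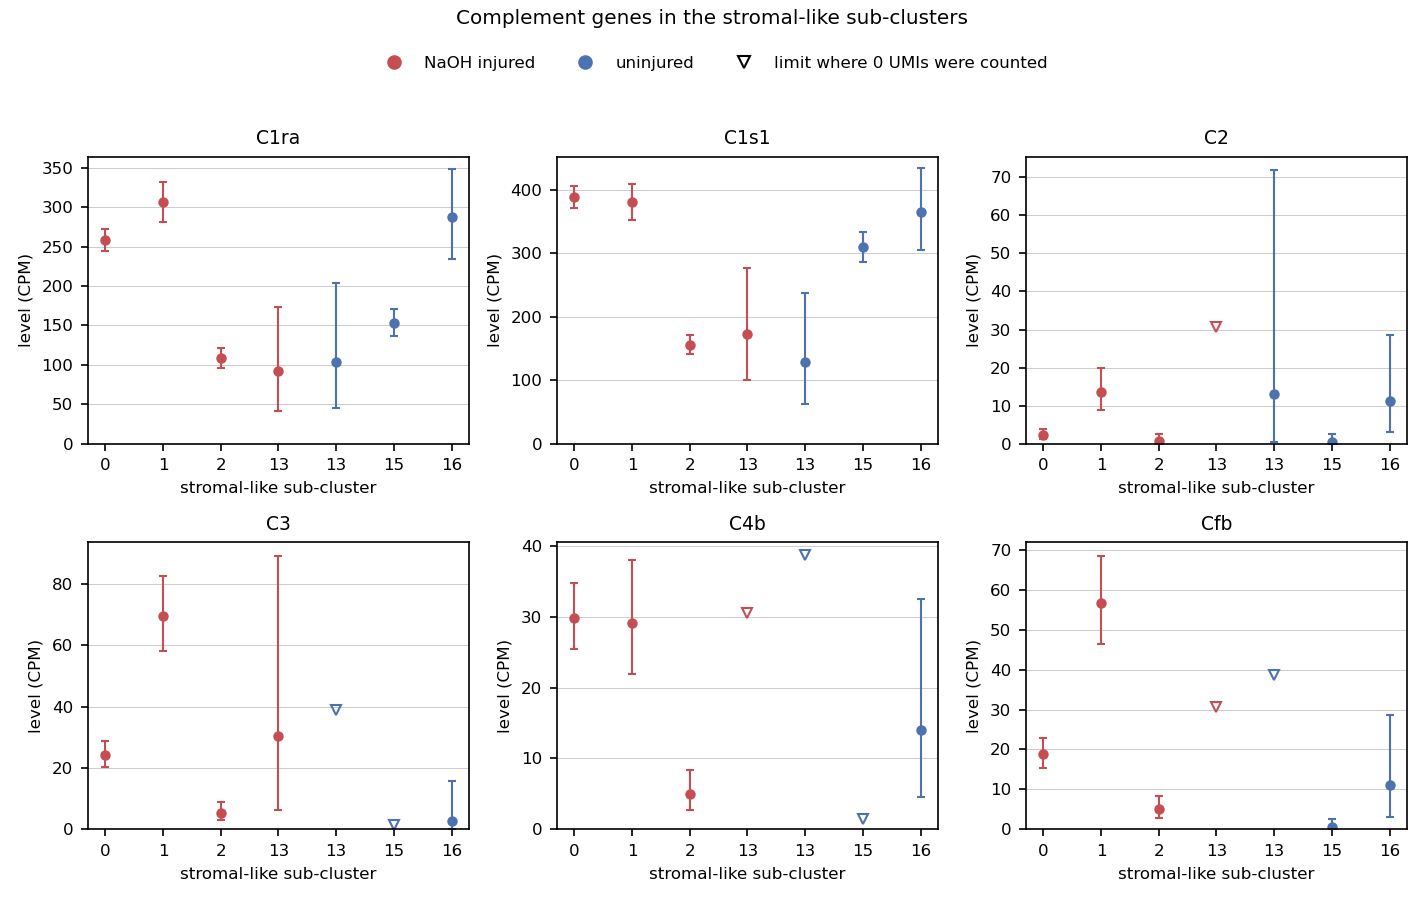
Level in CPM, with 95% Poisson intervals, in the stromal-like sub-clusters, numbered as led by Saa3 (0), Clec3b (1), Tnfrsf11b (2), Chad (13), Kera (15) and Coch (16); open triangles mark the level of 3 UMIs where 0 were counted. C3 and Cfb are highest in the injured cells led by Clec3b, at 69.6 and 56.7 CPM, while C1ra and C1s1 are similar in the injured cells led by Clec3b and the uninjured cells led by Coch.

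C3 was highest in neutrophil-like cells, the granulocytes found almost wholly in the injured library. It stood there at 328.1 CPM (292.5 to 366.9, 308 UMIs), above stromal-like cells at 27.3 CPM and macrophage or monocyte-like cells at 25.1 CPM (18.5 to 33.3), whose intervals overlap each other. Epithelial-like cells followed at 3.55 CPM (3.15 to 3.99), and endothelial-like cells at 2.93 CPM (1.08 to 6.39) were not separated from them. At a median depth of 852 UMIs, 22.4% of the neutrophil-like cells had a C3 UMI, against 1.03% of injured Schwann-like cells at a median of 2584 UMIs. Thinned to 1000 UMIs, 27.6% of the 254 deep enough (22.2 to 33.5) had one, with 763 shallower cells left out. The sub-cluster led by Siglecf stood at 333.6 CPM and that led by Retnlg at 320.3 CPM, with overlapping intervals. None of the other 8 members reached 15 CPM in neutrophil-like cells.

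In macrophage or monocyte-like cells C3 stood at 25.1 CPM (48 UMIs) in injured and 55.6 CPM (11.5 to 162.4, 3 UMIs) in uninjured cells, a ratio of 0.452 (0.146 to 2.27) that includes 1. In epithelial-like cells it stood at 3.55 CPM (3.15 to 3.99) in injured and 3.25 CPM (2.85 to 3.69) in uninjured cells, a ratio of 1.09 (0.918 to 1.30), the sole member there whose interval included 1. The epithelial level was uneven among clusters. In the injured library 1159 cells led by Inhba, Wfdc18 and Ndufa4l2 stood at 9.29 CPM (7.84 to 10.9) and 722 cells led by histone and mitotic genes at 4.85 CPM (3.69 to 6.26), while the largest cluster, 2525 cells led by Hpgd and Gpha2, stood at 1.49 CPM (1.06 to 2.03). In the uninjured library 382 cells led by Tppp3 and Apoe stood at 12.6 CPM (9.38 to 16.6), and 56 injured cells of the same cluster had 0 C3 UMIs in 478184, which allows up to 6.27 CPM. The other uninjured epithelial-like clusters of over 100 cells lay between 1.28 and 4.19 CPM.

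In epithelial-like cells 8 of the 9 members, C3 being the exception, were counted higher in the injured library and 0 lower, where 13.7% of all genes were counted higher and 11.5% lower. The median log2 ratio of the 9 was 1.98, with Cfb at its bound, against 0.01 over the 14713 genes measured. All 8 stood at very low levels, and with cells thinned to 1000 UMIs 0 of the 9 were counted. As in the stroma, the largest epithelial-like clusters differ between the libraries, being the 2525 injured cells led by Hpgd, which 12 uninjured cells join, and 1874 uninjured cells led by Nppb, which no injured cell joins. C1s1, with the most UMIs of the 8, stood at 2.70 CPM (2.35 to 3.08, 218 UMIs) in injured and 0.634 CPM (0.466 to 0.843, 47 UMIs) in uninjured cells, 4.26-fold higher (3.09 to 5.97). C1ra stood at 1.27 CPM in injured and 0.485 CPM in uninjured cells, 2.63-fold higher (1.78 to 3.95), and C2 at 1.19 CPM in injured and 0.391 CPM in uninjured cells, 3.04-fold higher (1.99 to 4.78). C4b was counted 22 times in injured and 8 times in uninjured epithelial-like cells, and Cfb 26 times in injured and 0 times in uninjured ones, at least 7.95-fold higher with the count of 0 set to 3 over the class, or a lower 95% limit of 6.02 with the count left at 0. Each of these levels was at most 7.03% of that gene's level in its highest class of the same library. The 8 stromal markers summed to 190.1 CPM in injured and 73.6 CPM in uninjured epithelial-like cells, none at 0, which is 0.433% and 0.0946% of their stromal sums. The 9 macrophage markers summed to 261.1 CPM in injured epithelial-like cells, 0 at 0, and 325.3 CPM in uninjured ones, 2 at 0. Few markers can carry this sum. In uninjured mural-like cells 1 of the 9 held all of 135.1 CPM, so the sum is no measure of macrophage RNA. Of 9 complement receptor genes measured in epithelial-like cells, 4 were counted higher in the injured library and 0 lower. Among these 4, C3ar1 had 41 injured and 3 uninjured UMIs, and C5ar1 had 71 and 4. The 8 neutrophil markers summed to 118.1 CPM in injured and 27.6 CPM in uninjured epithelial-like cells. The part of RNA from other cells in the epithelial values was not tested. C1s1 in epithelial-like cells was 0.840% and 0.202% of its stromal level in the injured and uninjured library, and C1ra 0.569% and 0.283%. When members under 25% of their highest class level were left out, 0 of the epithelial and 1 of the stromal members, Cfb, remained counted higher.

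Cfb, the factor B gene of the alternative pathway, was the member with the fewest UMIs in the uninjured library, 8 against 293 in the injured library. In the injured library stromal-like cells at 21.7 CPM (18.9 to 24.7) and vascular endothelial-like cells at 19.1 CPM (13.6 to 26.1) had overlapping intervals, and macrophage or monocyte-like cells followed at 3.67 CPM (1.47 to 7.55). Endothelial-like cells stood at 19.1 CPM (39 UMIs) in the injured and 17.9 CPM (3.70 to 52.4, 3 UMIs) in the uninjured library, a ratio of 1.06 (0.338 to 5.38). The injured UMIs lay in 29 of 211 cells and the uninjured UMIs in 1 of 44 cells, so the uninjured level rests on 1 cell. Cfb was the sole member measured in endothelial-like cells and was counted neither higher nor lower, where 6.77% of all genes were counted higher and 6.63% lower. The difference between this ratio and the stromal ratio of 11.2 was not tested.

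**Figure D5:**
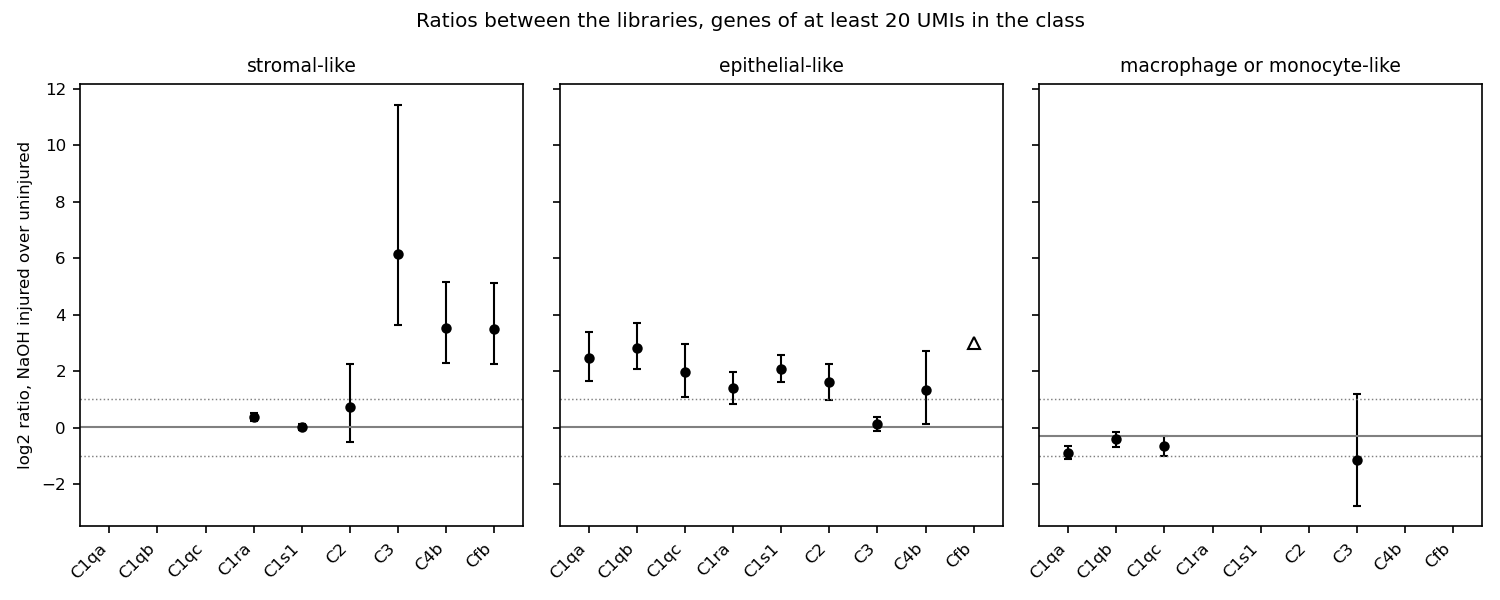
Log2 ratio, injured over uninjured, of each member with at least 20 UMIs in stromal-like, epithelial-like and macrophage or monocyte-like cells, with 95% conditional binomial intervals; the grey line is the median of all genes measured, the dotted lines mark 2-fold, and the open triangle is a lower bound. In stromal-like cells C3, C4b and Cfb lie at 6.14, 3.54 and 3.49, and C1ra and C1s1 near 0.

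A wider set of 50 complement genes (lectin pathway, other proteases, terminal pathway, regulators and receptors) was counted by the same rule. In stromal-like cells 9.88% of all genes were counted higher and 9.37% lower. Of the 50, 17 were measured there, 3 were counted higher and 1 lower, with a median log2 ratio of 0.39, against 0.01 over all genes. The higher ones were all regulators. Among them Clu, clusterin, was 8.30-fold higher (7.30 to 9.49), and Thbd, thrombomodulin, 3.91-fold higher (2.28 to 7.27). The lower one, Susd4, named after its values were seen, stood at 0.295 CPM in injured and 38.3 CPM in uninjured cells. Serping1, the C1 inhibitor that binds C1r and C1s, stood at 963.7 CPM in injured and 1852 CPM in uninjured stromal-like cells, 1.92-fold lower (1.86 to 1.99), just short of the limit. Masp1, a protease of the lectin pathway, stood at 188.0 CPM in injured and 97.1 CPM in uninjured stromal-like cells, 1.94-fold higher (1.70 to 2.22), also short of it.

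In epithelial-like cells 25 of the 50 were measured, 10 counted higher and 2 lower, where 13.7% of all genes were counted higher and 11.5% lower. The median log2 ratio of the 25 was 0.67. Clu at 3077 CPM in injured and 190.2 CPM in uninjured cells was the sole one of the 10 above 10 CPM. In mural-like cells 12 were measured, with Clu and C1qbp, a mitochondrial protein that can bind C1q, higher and Colec11, a soluble lectin, lower. Of all genes there 8.8% were counted higher and 8.09% lower. In Schwann-like cells 7 were measured and Clu was higher, where 10.3% of all genes were counted higher and 5.58% lower. In endothelial-like cells 11 were measured, 1 higher (C1qbp) and 3 lower, among them Thbd and Lrp1. Of all genes there 6.77% were counted higher and 6.63% lower. In macrophage or monocyte-like cells 16 were measured, 4 higher (Cfp, Clu, Itgam and Lrp1) and 2 lower, among them Cr1l. Of all genes there 2.63% were counted higher and 3.33% lower. Cfp encodes properdin, which stabilises the alternative pathway enzyme, and stood at 488.7 CPM in injured and 111.1 CPM (6 UMIs) in uninjured cells, 4.40-fold higher (2.01 to 12.0). The receptors of the small peptides cut from C3 and C5 were found on leukocyte classes: C3ar1 stood at 382.9 CPM in injured and 537.2 CPM in uninjured macrophage or monocyte-like cells, and C5ar1 at 602.9 CPM in injured neutrophil-like cells. Of the terminal pathway, Hc, the mouse C5 gene, named after its values were seen, had 15 UMIs in injured and 5 UMIs in uninjured stromal-like cells.

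The genes whose pattern was most like each member were ranked by Pearson's r of log2(CPM + 1) over 12 combinations of class and library, among 6041 genes. The combinations share libraries and free RNA, so r is a description. Nearest were C3ar1 to C1qa (r = 0.995), Ccl24 to C1qb (0.990) and Ms4a7 to C1qc (0.996). Col5a1 was nearest to C1ra (0.959), Twist1 to C1s1 (0.97) and Npy1r to C2 (0.940). Il1rn was nearest to C3 (0.968) and Apln to Cfb (0.908), and Scn7a was among the 3 nearest to C4b (0.932). Among the members r was 0.952 to 0.976 between the C1q chains and 0.882 between C1ra and C1s1, against 0.167 between C3 and Cfb and -0.19 between C3 and C4b, with all of C3, C4b and Cfb counted higher in injured stromal-like cells.

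Counts of some members could be shared with near copies. Of the 50-base words in the last 500 bases of the transcript, 19.1% for C1ra also occur in C1rb, 18.0% for C1s1 in C1s2 and 38.1% for C4b in C4a, so reads there could be lost or assigned to either. In injured stromal-like cells C1rb had 2 UMIs, C1s2 had 2 and C4a had 3. Gm20547, a gene model that spans C2 and Cfb and holds 91.6% of these words of Cfb, is not listed by that symbol in the deposited gene tables.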

How the data were processed

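Raw UMI counts per gene and cell were read as the authors deposited them, 1 count matrix per library; per the file headers they were made with Cell Ranger 7.0.1, and per the submitters' processing notes on GRCm38. The annotation release and chemistry were not stated in the labels or headers. The filter asked for 300 genes, 500 UMIs and no more than 20% mitochondrial UMIs per barcode and passed 9003 of 9399 injured and 7150 of 7490 uninjured barcodes. Scrublet (scanpy 1.11.5) marked 2 injured and 32 uninjured doublets by its own threshold, which was taken to have failed, and 635 injured and 407 uninjured cells with the highest scores were removed instead (an assumed 0.8% per 1000 barcodes).

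Both libraries were clustered together (2000 variable genes without the 59 complement genes, 30 components, Leiden resolution 1), non-epithelial cells again with 20 components. Clusters were named when at least 3 listed markers reached 50 CPM; the scoring was settled after seeing the data. Sums of counts over each class in a library were scaled to CPM. A gene needed 20 UMIs over both libraries to be measured, and a ratio of 2 or more, or its inverse, with a 95% interval excluding 1 to be counted higher or lower. In a ratio a count of 0 was set to 3, and no ratio was formed where both counts were at most 3. The calling was tried on Poisson counts drawn from the uninjured library sums with known folds. Such counts hold no spread between cells or libraries, so this checks the calculation and not the calls in these data. No test over replicates exists, with 1 library per group. All 9 members are named in every class; of the wider lists, genes of at least 50 CPM in 1 class that were counted in some class. Members and lists were chosen with earlier results of these data known. Positions come from GENCODE M21, which matched 32158 gene IDs and left 127 unmatched. Some results of the wider lists and rankings are not reported here.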

Additional observations from a re-analysis of the deposited data

Results flagged for a closer look

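Some genes were at least 2-fold higher in 1 class and at least 2-fold lower in another, injured over uninjured, with intervals that excluded 1 on each side. C1ra had a log2 ratio of 1.39 in epithelial-like cells, at 1.27 CPM in injured and 0.485 CPM in uninjured cells, and of -1.31 in mural-like cells. Thbd had log2 ratios of 2.72 (1.48 to 4.24, 43 injured and 6 uninjured UMIs) in epithelial-like and 1.97 (1.19 to 2.86, 215 and 14 UMIs) in stromal-like cells. In vascular endothelial-like cells its log2 ratio was -1.46 (-2.13 to -0.743, 102 and 23 UMIs). Lrp1 had log2 ratios of 1.75 (0.515 to 3.37, 593 injured and 5 uninjured UMIs) in macrophage or monocyte-like cells and -2.03 (-3.56 to -0.213, 15 and 5 UMIs) in vascular endothelial-like cells. With 1 library per group these differences between classes were not tested.

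C3 at 328.1 CPM in injured neutrophil-like cells belongs to no comparison, since the uninjured library held 2 such cells, and is above its level in every class compared.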

How the results depend on the processing

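No paired analysis was possible because each group has 1 library. Each of 23 log2 ratios of members was recomputed under up to 14 other settings: of 268 values 251 stayed within the spread that counting allows, 15 moved and 2 reversed. The reversed ones are epithelial C1qc, -2.24 with the lowest class level subtracted as free RNA (1.98 as reported), and epithelial C4b, -0.21 with each cell weighted alike (1.34). Of 8 members higher in epithelial-like cells, 0 were counted with cells thinned to 1000 UMIs, 5 with free RNA subtracted and 0 with members under 25% of their highest class level left out. That last setting left 1 of 3 in stromal-like cells. The 1 lower in mural-like cells became 0 with no doublets removed and 0 when thinned. Where 0 were lower, 1 was counted in endothelial-like cells with no minimum count, and 1 in macrophage or monocyte-like cells with each cell weighted alike, 1 when thinned and 1 with no minimum count. Beyond the effect of fewer UMIs or cells in the thinned setting, the cause was not tested. Of 46 shares of cells, 28 stayed and 18 moved when thinned to 500 in place of 1000 UMIs. Leaving out the dendritic-like cells gave no value for the macrophage or monocyte-like class, since under 10 uninjured cells remained. The setting on highest class level, and those leaving out shallow, dendritic-like or lymphatic-like clusters, were chosen after seeing the data. Depth limits C2, and the uninjured levels of Cfb, C4b and all members in 14 macrophage or monocyte-like cells.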

Other observations

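Within injured stromal-like cells, 20.1% of the 164 cells with a C3 UMI also had a Cfb UMI, against 13.3% of all 803 cells, and 26.8% also had a C4b UMI, against 17.8% of all cells. These shares are not thinned, and deeper cells have more UMIs of every gene. In injured neutrophil-like cells, 1 of 228 cells with a C3 UMI had a C4b UMI and 0 had a Cfb UMI.

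Of the genes that follow, Cd59a and Vtn were chosen after their values were seen. Cd59a, which blocks the membrane attack complex, stood highest in Schwann-like cells, at 506.2 CPM in injured and 310.2 CPM in uninjured cells, a ratio of 1.63 (1.10 to 2.49). Vtn, vitronectin, was counted mostly in mural-like cells, at 129.1 CPM in injured and 206.7 CPM in uninjured cells. Itgam and Itgb2, the chains of complement receptor 3, stood at 436.7 and 318.5 CPM in injured neutrophil-like cells.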
